A study of Mus musculus with 3 samples.

Results

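NFAT transcription factors, their activating phosphatase calcineurin and the channels that supply calcium to it were read as a group of 10 genes in mouse osteoclast cultures. The genes were chosen by name: Nfatc1, Nfatc2 and Nfatc3 for the factors, Ppp3ca, Ppp3cb and Ppp3r1 for calcineurin, Rcan1 for its regulator, and Itpr1, Itpr2 and Stim1 for calcium release and entry. All 10 were found among the 54532 genes of the deposited table, and all 10 had a mean of at least 1 FPKM (read fragments over gene length and library depth), as did 11069 genes in all. The cells were RAW264.7, an established mouse macrophage line of WT genotype per the labels, and all had received RANKL, the cytokine that drives osteoclast formation, for 3 days. One library, R0 here, came from RANKL alone and is labelled 0 h. The other 2 came from cells that were then given 10 mU/mL of thyroid stimulating hormone (TSH) for 2 h or 24 h, 1 library each.

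The deposited columns of the TSH libraries are named T1 and T2, and these names do not say which holds 2 h and which 24 h, so the names are kept here and no order in time is read. Whether further hours in culture passed along with TSH cannot be told apart from TSH in this design. Recovered reads numbered between 16156926 and 17390744 per library. With 1 library per group there is no spread between replicates and no test of a condition. Intervals cover counting error only. "Beyond counting error" below means that the exact conditional 95% interval of a ratio of FPKM, computed from the reads, leaves out 1, a statement about these libraries and not about TSH.

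As background, RANKL and costimulatory receptors activate phospholipase C, whose product IP3 opens IP3 receptors in the endoplasmic reticulum. When the store empties, STIM proteins open ORAI channels in the plasma membrane. Calcium and calmodulin then switch on calcineurin, which removes phosphates from NFAT proteins so that they enter the nucleus, where NFATc1 raises its own gene and the genes of bone resorption. The amount of mRNA does not measure calcium, phosphatase activity or the place of a protein in the cell.

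The cultures carried osteoclast transcripts: 7 of 8 osteoclast markers passed 1 FPKM, and the remaining marker, Calcr, the calcitonin receptor gene, lay at 0.697 FPKM in R0, 0.412 in T1 and 0.321 in T2. Macrophage markers passed in 5 of 6 cases, with Mertk at 0, 0 and 1 reads. Of 8 osteoblast and fibroblast, 6 lymphocyte and 6 neutrophil markers, 0 passed, and their summed levels ranged from 0.259 to 0.380, from 0 to 0.196 and from 0 to 0.207 FPKM over the libraries. The summed level of the osteoclast markers was 2906 FPKM in R0, 2379 in T1 and 2318 in T2, while that of the macrophage markers was 1231, 1217 and 1219 FPKM. The largest parts of the osteoclast sum were Ctsk, at 1337, 983 and 980 FPKM, and Acp5, at 972, 857 and 822. Of the 7 osteoclast markers, 0 were higher and 5 lower in T1 beyond counting error (6 lower with the libraries rescaled to the same total). In T2, 0 were higher and 7 lower. Their median differences were -0.18 and -0.24 in log2 (FPKM + 1). Single macrophage markers went both ways. Of the 5, 2 were higher and 2 lower than R0 in T1 beyond counting error, and 3 were higher and 2 lower in T2. Over all genes past 1 FPKM, 10.8% were higher and 12.2% lower in T1, and 10.2% and 13.2% in T2. The median differences of the 5 macrophage markers were 0.07 and 0.14 in log2 (FPKM + 1). Their part in the results below was not tested. In bulk RNA, fewer cells of a type and less RNA per cell cannot be told apart.

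Rcan1 encodes regulator of calcineurin 1, a calcineurin-binding protein, and is a classical target of NFAT. The 2 starts that the RefSeq promoter table lists are shown because the deposited value is 1 number for the whole gene, so a difference in Rcan1 cannot be assigned to any start. The gene as deposited extends upstream of both, to base 92470867, so its annotation holds at least 1 further start that is not shown. RefSeq (GRCm38.p6) places the listed starts 66091 bases apart on the minus strand of chromosome 16. The windows are the 250 bases before each start, 5′ to 3′ on the gene's strand: chr16:92466170-92466419 for the upstream start and chr16:92400079-92400328 for the internal start, which lies inside the gene (chr16:92391953-92470867). Capitals mark matches to GGAAA, the core bound by NFAT, or to TTTCC, its complement on the other strand.
Rcan1 upstream start: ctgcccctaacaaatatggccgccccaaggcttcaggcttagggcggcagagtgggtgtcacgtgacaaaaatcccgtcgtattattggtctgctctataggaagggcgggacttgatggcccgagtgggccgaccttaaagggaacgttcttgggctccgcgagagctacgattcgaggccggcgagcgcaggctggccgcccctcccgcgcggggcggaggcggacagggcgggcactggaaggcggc
Rcan1 internal start: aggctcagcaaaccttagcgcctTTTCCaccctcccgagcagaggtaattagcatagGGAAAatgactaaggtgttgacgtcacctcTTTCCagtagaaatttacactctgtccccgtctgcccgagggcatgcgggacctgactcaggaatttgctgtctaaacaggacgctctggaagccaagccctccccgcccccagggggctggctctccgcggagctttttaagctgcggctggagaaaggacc
The upstream window held 0 matches and the internal window 3, which lie 222, 188 and 158 bases before the start. Such matches are common: 55.6% of 32817 promoter windows of this length held at least 1, and 6.38% held at least 3. Of the 10 genes, 7 had entries in the promoter table, with 10 windows, of which 5 held 0 matches. Like the internal window of Rcan1, 1 window of Nfatc2 and the window of Ppp3cb held 3. A match describes the letters and not a site in use.

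Nfatc1 (chr18:80606205-80713071, GRCm38) encodes NFATc1, the factor without which osteoclasts do not form. It stood at 165 FPKM in R0, 173 in T1 and 159 in T2, from 19781, 21566 and 20664 reads. It was 5th in level among 636 transcription factor genes past 1 FPKM in R0, and it lay in the top 2.64% of all genes past that limit. T1 was the highest library and T2 the lowest, and each library differed from the others beyond counting error. The ratio was 1.05 (1.03 to 1.07) for T1 and 0.961 (0.943 to 0.980) for T2, both against R0, and 0.917 (0.900 to 0.935) for T2 against T1. On the scale of log2 (FPKM + 1), which understates changes of low genes, these differences were 0.07, -0.06 and -0.12.

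Nfatc3, a calcium-regulated family member found in many tissues, was at 8.94 FPKM in R0, 9.66 in T1 and 9.29 in T2. It was higher in T1 at a ratio of 1.08 (1.01 to 1.16), and with the libraries rescaled to the same total that interval reached from 0.994 to 1.13 and no longer left out 1. In T2 the ratio to R0 was 1.04 (0.973 to 1.11), which did not pass. Nfatc2, best known from T cells, was at 3.21, 3.00 and 2.63 FPKM in the same order, from 548, 532 and 487 reads. Its ratio was 0.934 (0.827 to 1.05) in T1 and 0.818 (0.722 to 0.926) in T2, so that only the T2 library stood below R0 beyond counting error.

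Within the family, Nfatc1 made up 75.6%, 76.1% and 74.4% of the summed FPKM of the 5 NFAT genes in R0, T1 and T2. Nfat5, a relative that answers to salt stress and does not depend on calcineurin, followed at 41.1, 41.6 and 42.6 FPKM. Its ratio to R0 was 1.01 (0.988 to 1.04) in T1 and 1.04 (1.01 to 1.06) in T2, so only T2 was higher beyond counting error. Nfatc4 had 8, 14 and 12 reads, at most 0.144 FPKM in any library. Among the genes that the deposited table assigns to the RHD family, the Rel-homology factors, 9 passed 1 FPKM, and Nfatc1 was the highest of them in each library, ahead of Nfkb2 at 64.3, 62.9 and 60.4 FPKM. The level of Nfatc1 over that of Nfatc2 was 51.4 in R0, 57.7 in T1 and 60.4 in T2. Such a ratio of 2 genes within a library needs no scaling between libraries. The pairs of genes shown here and below were chosen after their values were seen. From R0 to T2 it was larger by a factor of 1.18 (95% interval on the log scale from the reads, 1.04 to 1.33), and to T1 the factor was 1.12 (0.995 to 1.27). The level of Nfatc1 over that of Nfatc3 went the other way, at 18.5, 17.9 and 17.1, with factors of 0.970 (0.906 to 1.04) for T1 and 0.925 (0.864 to 0.991) for T2 against R0.

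**Figure D1:**
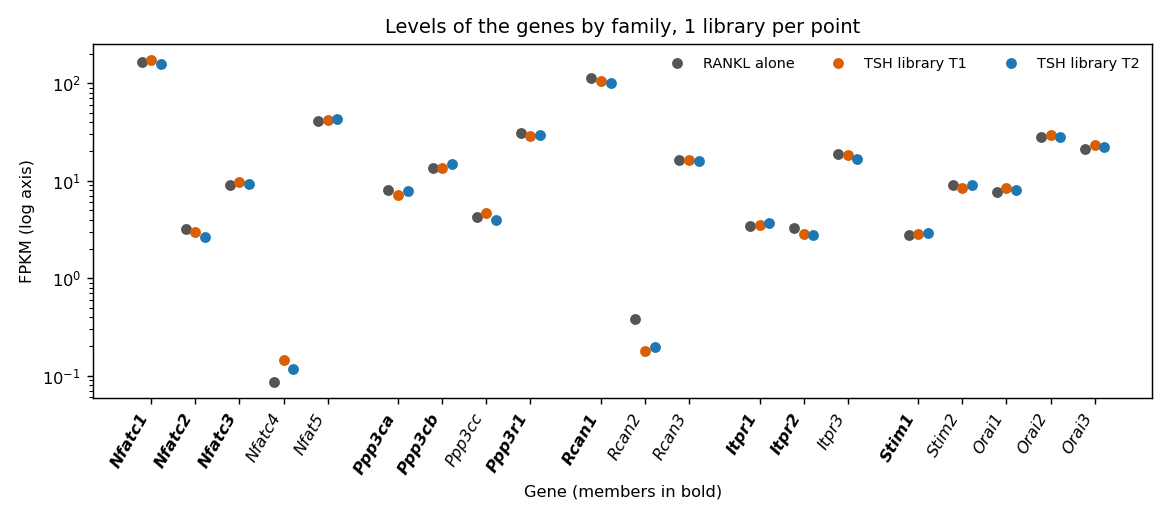
Level of each gene of the 5 families in FPKM (y axis, log scale) in the 3 libraries, 1 point per library, with the 10 genes in bold beside their relatives. Nfatc1 and Rcan1 lie near or above 100 FPKM in each library, while Nfatc2, Itpr1, Itpr2 and Stim1 lie between 2.63 and 3.68 FPKM.

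Calcineurin joins a catalytic A subunit to a regulatory B subunit. Ppp3cb, encoding the catalytic beta form, was at 13.5 FPKM in R0, 13.4 in T1 and 14.7 in T2. The T2 library stood apart from the other two, with a ratio of 1.09 (1.03 to 1.16) to R0 and of 1.10 (1.03 to 1.17) to T1, while T1 and R0 did not differ beyond counting error (0.994, 0.932 to 1.06). Ppp3ca, encoding the catalytic alpha form, was at 8.11, 7.13 and 7.80 FPKM, lowest in T1. Its ratio was 0.879 (0.812 to 0.952) in T1 and 0.961 (0.890 to 1.04) in T2 against R0, and 1.09 (1.01 to 1.18) for T2 against T1.

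The beta form therefore exceeded the alpha form in each library, by a factor of 1.66 in R0, 1.87 in T1 and 1.88 in T2. Against R0 that factor was 1.13 times larger in T1 (1.02 to 1.25) and 1.14 times in T2 (1.03 to 1.25), and the TSH libraries differed by 1.01 (0.911 to 1.11). Ppp3cc, the catalytic gamma form, which is known from testis and brain, was at 4.20, 4.63 and 3.96 FPKM from 202, 232 and 207 reads, and no pair of libraries differed beyond counting error. The 3 catalytic genes summed to 25.8, 25.1 and 26.5 FPKM.

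Ppp3r1, encoding the regulatory subunit calcineurin B, was at 31.0 FPKM in R0, 28.9 in T1 and 29.2 in T2. The T1 ratio of 0.930 (0.867 to 0.998) passed narrowly, and the T2 ratio of 0.942 (0.879 to 1.01) did not. Its exons overlap those of Wdr92 on the same strand, which had 282, 324 and 337 reads against 1616, 1563 and 1654 for Ppp3r1, so reads may be divided between them and the value is uncertain. The log2 ratio of the summed reads of both genes, scaled to depth, was -0.06 in T1 and -0.05 in T2. The level of Ppp3r1 over that of Ppp3ca was 3.83 in R0, 4.05 in T1 and 3.75 in T2. Against R0 the factors were 1.06 (0.953 to 1.17) for T1 and 0.980 (0.885 to 1.09) for T2. For T2 against T1 the factor was 0.926 (0.835 to 1.03), so no interval left out 1. Ppp3r2, the second gene of calcineurin B, known from testis, had 0 reads in each library, which allows up to 0.0615 FPKM.

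Rcan1, the NFAT target introduced above, was the second most abundant of the 10 genes, at 114 FPKM in R0, 106 in T1 and 99.7 in T2, from 5675, 5491 and 5388 reads. The 3 libraries were separate from each other beyond counting error, in R0 highest and T2 lowest. The ratio to R0 was 0.931 (0.897 to 0.966) in T1 and 0.874 (0.842 to 0.907) in T2, and T2 to T1 was 0.939 (0.904 to 0.975). In log2 (FPKM + 1) the differences were -0.10, -0.19 and -0.09. Rcan3, a paralogue, stood at 16.3, 16.3 and 15.9 FPKM with no pair beyond counting error. The level of Rcan1 over that of Rcan3 was 7.01 in R0, 6.52 in T1 and 6.28 in T2. Against R0 the factors were 0.930 (0.856 to 1.01) for T1 and 0.896 (0.824 to 0.974) for T2. Rcan2 was low, under 1 FPKM in each library at 27, 13 and 15 reads. Its ratios were 0.463 (0.219 to 0.929) for T1 and 0.511 (0.253 to 0.996) for T2.

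Nfatc1 and Rcan1 were both lower in T2 than in R0, but went apart in T1, where Nfatc1 was higher and Rcan1 lower. The level of Nfatc1 over that of Rcan1 was 1.45 in R0, 1.63 in T1 and 1.59 in T2. It was larger than in R0 by a factor of 1.13 (1.08 to 1.17) for T1 and 1.10 (1.05 to 1.15) for T2, and between the TSH libraries the factor was 0.976 (0.936 to 1.02).

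The IP3 receptors release calcium from the endoplasmic reticulum. Itpr1 was at 3.45 FPKM in R0, 3.53 in T1 and 3.68 in T2, and no pair of libraries differed beyond counting error. Itpr2 was at 3.27, 2.83 and 2.75 FPKM, higher in R0 than in both TSH libraries, with ratios of 0.866 (0.781 to 0.960) for T1 and 0.841 (0.759 to 0.932) for T2. T1 and T2 did not differ beyond counting error (0.972, 0.875 to 1.08).

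The level of Itpr1 over that of Itpr2 was 1.05 in R0, 1.25 in T1 and 1.34 in T2, larger by factors of 1.18 (1.04 to 1.35) and 1.27 (1.11 to 1.45). The main receptor gene by level was Itpr3, outside the 10 genes, at 18.8, 18.2 and 16.6 FPKM, or 73.6%, 74.1% and 72.1% of the 3 receptors. Its ratio in T2 was 0.884 (0.837 to 0.933) to R0 and 0.912 (0.864 to 0.962) to T1.

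Stim1 encodes the sensor of calcium in the endoplasmic reticulum that opens ORAI channels. It was at 2.78 FPKM in R0, 2.85 in T1 and 2.91 in T2, from 465, 496 and 528 reads, the lowest of the 10 genes in R0. No pair of libraries differed beyond counting error, and the interval of the T2 ratio to R0 ran from 0.921 to 1.19. Stim2, its paralogue, was at 8.99, 8.39 and 9.05 FPKM, more than Stim1 in each library. Of the ORAI channel genes, Orai2 was at 28.0, 29.1 and 28.4 FPKM, Orai3 at 21.1, 23.5 and 22.1, and Orai1 at 7.62, 8.37 and 8.03. Only the Orai3 ratio in T1, 1.11 (1.005 to 1.23), left out 1 among these 4 relatives, and it did not with the libraries rescaled to the same total. Of the ryanodine receptors, the other release channels, Ryr1 was at 0.866, 0.953 and 0.802 FPKM, Ryr2 had 0 reads in each library and Ryr3 had 1 read in R0.

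**Figure D2:**
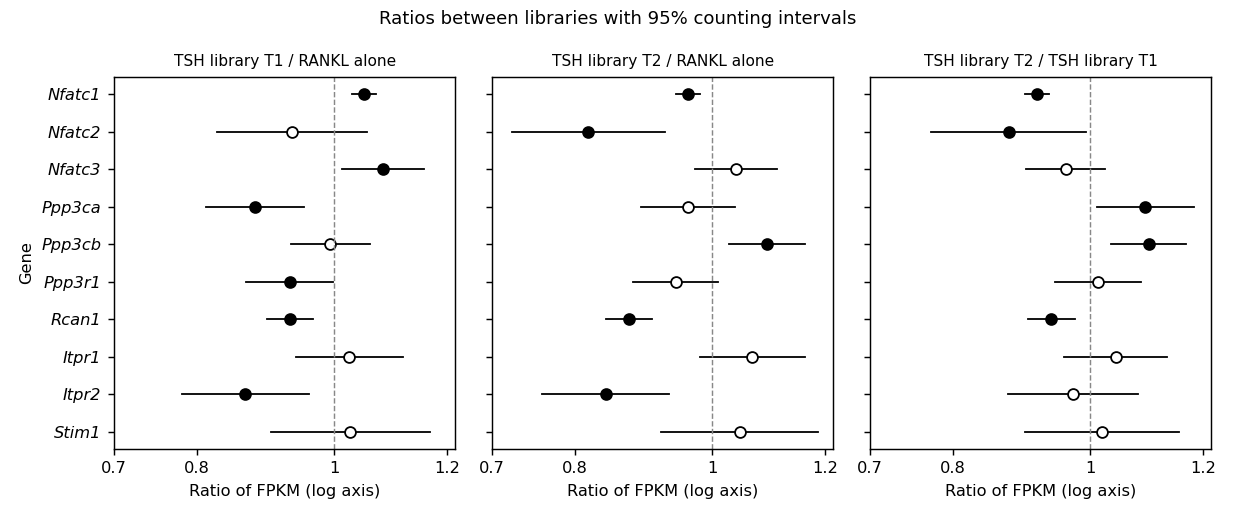
Ratio of FPKM between libraries (x axis, log scale) for each of the 10 genes, with exact 95% counting intervals from the reads, for T1 and T2 against R0 and T2 against T1. Filled points are ratios whose interval leaves out 1: Nfatc1 lies above 1 in the first panel and below 1 in the others, and Rcan1 lies below 1 in each.

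In total, 0 of the 10 genes passed a 2-fold difference on the scale of log2 (FPKM + 1) in any comparison. Over all 11069 genes that share was 1.04% in T1, 0.768% in T2 and 0.831% in T2 against T1. In T1, 2 of the 10 genes were higher and 4 lower than R0 beyond counting error (1 and 4 with the libraries rescaled to the same total). Over all genes 10.8% were higher and 12.2% lower, and with that rescaling 7.50% and 16.3%. In T2, 1 was higher and 4 lower, beside 10.2% and 13.2% of all genes. In T2 against T1, 2 were higher and 3 lower (2 and 2 rescaled), beside 7.93% and 10.1% of all genes, or 14.0% and 5.63% rescaled.

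Well-covered genes pass this limit at smaller differences, so the 7 of the 10 genes with a mean of at least 1000 reads were also set beside the 3953 genes of that depth. In T1, 2 of these 7 were higher and 3 lower, beside 15.6% and 19.3%. In T2, 1 was higher and 2 lower, beside 14.6% and 22.1%. In T2 against T1, 2 were higher and 2 lower, beside 10.6% and 15.7%. The median difference of the 10 genes was -0.04 in T1, -0.05 in T2 and -0.01 in T2 against T1, beside 0.00 for all genes in each. With the libraries rescaled to the same total the medians of the 10 genes were -0.06, -0.05 and 0.02, so the sign of the last turned. That rescaling shifts the log2 ratios of all genes alike, by -0.03 in T1, 0.01 in T2 and 0.03 in T2 against T1. The turned sign is therefore not particular to the 10 genes. The middle 50% of the 10 genes ran from -0.10 to 0.03 in T1 and from -0.16 to 0.05 in T2, and that of all genes from -0.08 to 0.08 in both. For T1 the lowest of the 10 genes was at -0.16 and the highest at 0.10, and for T2 they were at -0.22 and 0.12, inside the range that held 90% of all genes, -0.27 to 0.27 in T1 and -0.26 to 0.26 in T2. The genes moved in both directions, and nothing is read from a shared direction.

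**Figure D3:**
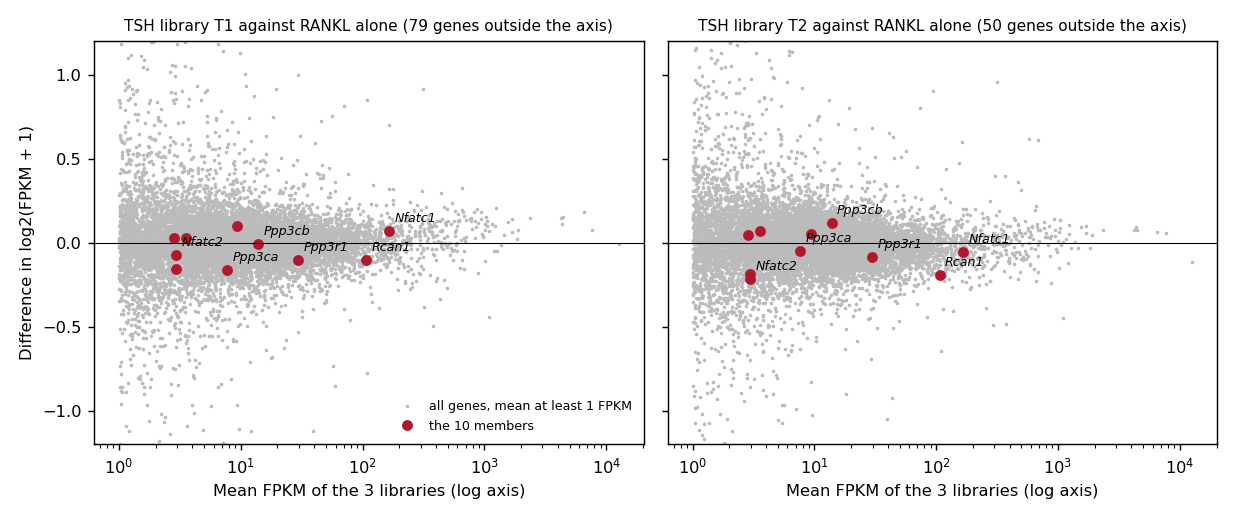
Difference in log2 (FPKM + 1) between each TSH library and R0 (y axis) against the mean level of each gene in FPKM (x axis, log scale), for all 11069 genes past 1 FPKM in grey and the 10 genes in red. The 10 genes lie between -0.22 and 0.12 in both panels, within the cloud of all genes. The axis leaves out 79 genes in T1 and 50 in T2.

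The steps around these genes were read from 10 lists of other pathway genes. The count of each list is to be set beside the shares over all genes past 1 FPKM. These were 10.8% higher and 12.2% lower in T1, and 10.2% and 13.2% in T2. With the libraries rescaled to the same total they were 7.50% and 16.3% in T1, and 11.4% and 12.1% in T2. Among genes with a mean of at least 1000 reads, 15.6% were higher and 19.3% lower in T1, and 14.6% and 22.1% in T2. No list was tested, and a count near these shares is no result about a list. Among receptors and adaptors upstream of Nfatc1, 1 of 10 was higher and 2 were lower in T1 (1 and 3 with the libraries rescaled to the same total), and 0 were higher and 6 lower in T2 beyond counting error, with medians of -0.01 and -0.11. Oscar, an osteoclast receptor that signals through an ITAM adaptor, was at 25.8 FPKM in R0, 19.6 in T1 and 19.3 in T2. Oscar is also on the list of NFATc1 target genes below, so the same values enter both lists. Traf6, the adaptor of RANK, was at 15.3, 12.8 and 14.2 FPKM, lower beyond counting error in both. Fos, which acts upstream of Nfatc1 in osteoclast formation, was at 109, 113 and 99.4 FPKM. Like Nfatc1 it was highest in T1 and lowest in T2, but its T1 ratio of 1.04 (0.997 to 1.09) did not pass, while that of T2, 0.912 (0.873 to 0.952), did.

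Of phospholipase C genes and their activators, 1 of 10 was higher and 2 lower in T1 (0 and 5 with the libraries rescaled to the same total), and 1 was higher and 3 lower in T2. Plcg2, the main gamma form of myeloid cells, was at 34.6, 34.9 and 34.3 FPKM with no pair beyond counting error. Syk, the kinase that binds ITAM adaptors, had ratios of 0.901 (0.855 to 0.950) for T1 and 0.920 (0.874 to 0.969) for T2. Blnk, an adaptor of phospholipase C gamma, had ratios of 0.833 (0.686 to 1.01) and 0.782 (0.643 to 0.949). Plcg1 was higher in T1 at 1.14 (1.01 to 1.28), which did not hold with the rescaling, and stood at 0.963 (0.850 to 1.09) in T2.

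The list of calcium entry and lysosomal channels gave 0 of 11 higher and 3 lower in T1, and 1 higher and 4 lower in T2. It also holds Saraf and Tmem64, which are not channel genes. Saraf was among the lower genes in both, at 0.866 (0.793 to 0.946) and 0.882 (0.809 to 0.961). Trpv2, a channel of macrophages, was at 39.2 FPKM in R0, 34.0 in T1 and 35.4 in T2, lower beyond counting error in both. P2rx4, an ATP-gated channel, had ratios of 0.828 (0.708 to 0.968) for T1 and 0.892 (0.766 to 1.04) for T2, and Pkd2, a cation channel, 1.03 (0.909 to 1.17) and 0.852 (0.749 to 0.969). Pumps, exchangers and mitochondrial uptake genes gave 1 of 11 higher and 3 lower in T1 (0 and 3 rescaled), and 1 higher and 4 lower in T2 (2 and 4 rescaled). Atp2c1, the calcium pump of the Golgi, was at 0.863 (0.815 to 0.915) and 0.867 (0.819 to 0.918), and Letm1, a cation exchanger of mitochondria, at 0.875 (0.821 to 0.933) and 0.848 (0.796 to 0.903). Slc8b1, the mitochondrial sodium-calcium exchanger gene, stood at 0.987 (0.866 to 1.13) in T1 and was higher in T2, at 1.15 (1.01 to 1.30).

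Of calmodulin and CaM kinase genes, 0 of 9 were higher and 3 lower in T1, and 0 higher and 2 lower in T2. Camk1, a calmodulin-dependent kinase gene, had the same ratio of 0.842 in T1 (0.762 to 0.930) and T2 (0.763 to 0.930), and Camk2d had 0.894 (0.833 to 0.958) and 0.856 (0.799 to 0.918). Camk1d, another kinase of this group, was lower in T1, at 0.910 (0.838 to 0.987), and not beyond counting error in T2, at 0.979 (0.904 to 1.06).

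Among partners and inhibitors of calcineurin, 1 of 6 was higher in T1 and 0 lower, and 1 was higher and 1 lower in T2. The higher gene was Ppia, encoding cyclophilin A, the binding protein of cyclosporin, at 194 FPKM in R0, 366 in T1 and 378 in T2. Ppia has 25 near-identical copies among annotated transcripts, whose reads numbered 9928, 4603 and 4227, so its own level is uncertain. The summed reads of Ppia and its copies gave log2 ratios of 0.27 in T1 and 0.27 in T2. Fkbp1a, encoding the binding protein of tacrolimus, was at 72.5, 72.9 and 68.8 FPKM, lower in T2 at 0.949 (0.910 to 0.989). Homer3, whose product competes with calcineurin for NFAT, was at 4.65, 4.14 and 4.51 FPKM and not beyond counting error. It is uncertain, since transcripts of 1 other gene with more reads (507, 562 and 596 against 258, 239 and 272) match its own. Whether that gene is a copy elsewhere or overlaps Homer3 was not checked.

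The kinases that return NFAT to the cytoplasm gave 0 of 7 higher and 1 lower in each TSH library, and that gene was Dyrk2, at 18.2 FPKM in R0, 16.1 in T1 and 14.9 in T2. Gsk3a and Gsk3b did not pass in either, with ratios of 0.963 and 0.941 in T1 and 0.949 and 0.996 in T2, although Gsk3b passed as lower in T1 with the rescaling. Of the repressors of Nfatc1, 2 of 4 were higher and 1 lower in T1, and 1 was higher and 0 lower in T2. Lilrb4a, an inhibitory receptor gene, was at 7.53, 8.45 and 8.55 FPKM, and its T1 call was lost with the rescaling. It has 2 near-identical copies and is uncertain. Id2, encoding an inhibitor of helix-loop-helix factors, was lower in T1, at 0.910 (0.846 to 0.980), and stood at 1.03 (0.963 to 1.11) in T2, and Bcl6, a transcriptional repressor, was at 0.968 (0.867 to 1.08) and 1.10 (0.987 to 1.22). Irf8, another repressor, was at 0.246 FPKM in R0 and did not pass the limit of 1 FPKM.

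Of 11 listed target genes of NFATc1 in osteoclasts, 10 passed 1 FPKM. In T1, 0 of these 10 were higher and 8 lower beyond counting error (9 with the rescaling), with a median difference of -0.22. In T2, 0 were higher and 10 lower, with a median of -0.25. Over all genes, 12.2% were lower in T1 (16.3% with the rescaling) and 13.2% in T2. Over genes with a mean of at least 1000 reads, 19.3% were lower in T1 and 22.1% in T2. The targets that did not pass in T1 were Dcstamp, at 0.960 (0.916 to 1.01), and Ocstamp, at 0.981 (0.933 to 1.03), both genes of cell fusion. Ctsk, the cathepsin K gene, went from 1337 FPKM in R0 to 983 in T1 and 980 in T2, and Clcn7, encoding a chloride transporter of the resorbing membrane, from 49.9 to 41.4 and 39.8. Src, a kinase needed for the ruffled border, went from 75.2 to 65.1 and 62.8 FPKM. The 8 that were lower in T1 were so while Nfatc1 itself was higher there. The fall of these genes had been seen in earlier results of these data, so this is no independent support, and 7 of the 10 are also the osteoclast markers that passed the limit above.

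**Figure D4:**
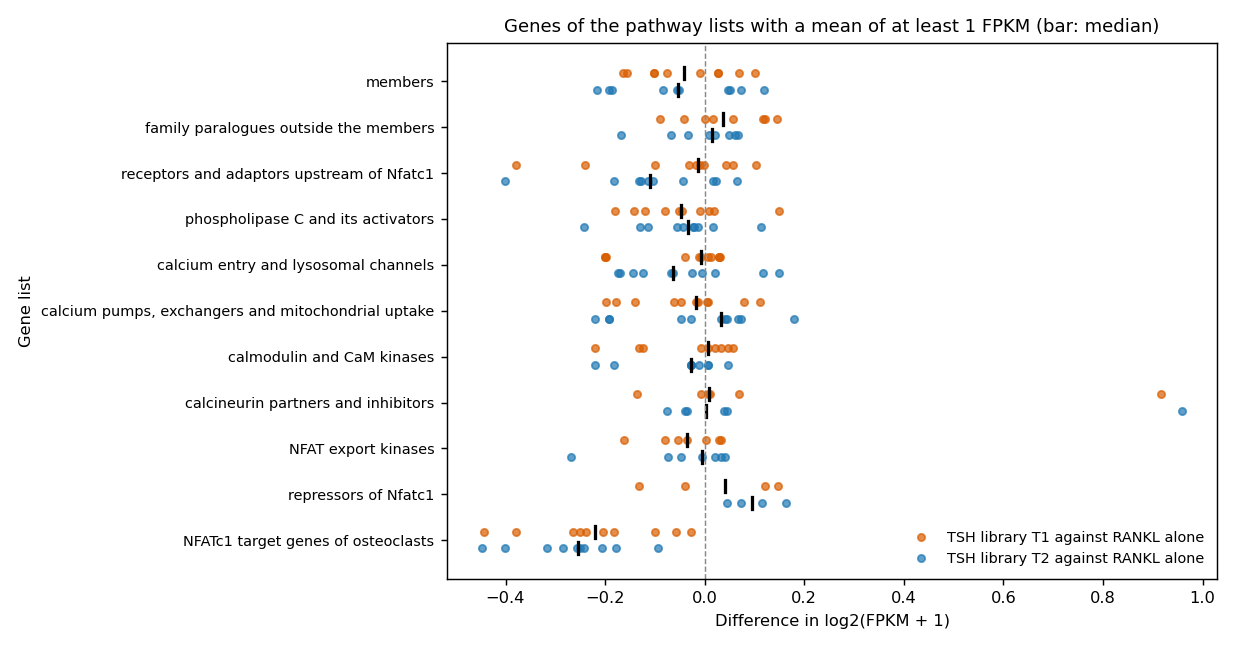
Difference in log2 (FPKM + 1) against R0 (x axis) for every gene past 1 FPKM of the 10 genes and the 10 pathway lists (y axis), with orange points for T1, blue points for T2 and a black bar for each median. All 10 target genes of NFATc1 lie below 0 in both libraries, with medians of -0.22 and -0.25, and the point far to the right is Ppia.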

How the data were processed

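RNA-seq libraries from 3 samples, 1 each, were prepared with the SMARTER mRNA-Seq kit, per the labels' protocols. The values are FPKM as the authors deposited them, 1 column per library. The submitters' processing notes name the builds GRCm38 and mm10, names of a single assembly. For the aligner, counting tool, annotation release and use of strand, the sources used here give nothing. The gene length in bases is a deposited column of another kind that belongs to no library, and 0 per-sample columns were left unused.

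In each library, the product of FPKM and length fell on multiples of 1 read for 100% of values above 0 (within 0.01), and this gave the reads per gene. Depths implied by the step were 16.1, 16.8 and 17.5 Mreads (mega-reads) and entered the ratios. Their exact conditional (Clopper-Pearson) 95% intervals count PCR copies as independent molecules. Intervals of ratios between 2 genes used the sum of inverse reads on the log scale. Differences were taken in log2 of FPKM plus a pseudocount of 1, after leaving out genes whose mean was under 1 FPKM, and 2-fold was the size rule. The functions were tested on simulated reads.

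The genes and lists were chosen with earlier results of these data known. The set of genes with at least 1000 reads and the pairs of genes were chosen after their values were seen. So were Nfkb2, Plcg2, Irf8, Calcr, Mertk, Saraf and Tmem64. Otherwise named were the 10 genes, their paralogues and up to 3 genes per list with the largest difference, and any listed NFATc1 target. Of 146 symbols listed, 145 were found. Copies were sought among GENCODE M21 transcripts (GRCm38) with BLAST+ 2.17.0, where 100 bases or more, and 50% of the shorter transcript, aligned at 95% identity or above. This search did not set copies elsewhere apart from genes that overlap at the same place, such as Wdr92 for Ppp3r1. Overlap was checked for the 10 genes only. Python 3.11.15, numpy 2.4.6, pandas 2.3.3, scipy 1.17.1 and matplotlib 3.10.9 were used. Alternatives were pseudocounts of 0.1 and 5, other filters, rescaling to the same total, median-of-ratios scaling, a 1.5-fold rule and 99% intervals.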

Additional observations from a re-analysis of the deposited data

Results flagged for a closer look

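The 2 TSH libraries lay on opposite sides of R0 for Nfatc1, T1 above and T2 below, each beyond counting error, and T2 against T1 differed by -0.12 in log2 (FPKM + 1). The difference was not tested, since each TSH condition has 1 library, and both ratios share R0. No other gene of the 10 met this pattern.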

How the results depend on the processing

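With 1 library per group, no library could be left out. The count of 0 among the 10 genes past the size rule held under every pseudocount, filter, scaling and fold tried, as did the sign of each gene's difference where its interval left out 1. Of 30 calls beyond counting error or not, rescaling to the same total changed 2 (Nfatc3 in T1, Nfatc2 in T2 against T1) and median-of-ratios scaling 0. With 99% intervals, 4 of the 10 genes instead of 6 passed in T1 (1 higher and 3 lower), 5 as before in T2, and 3 instead of 5 in T2 against T1. Of 120 values of single genes under alternatives, 117 stayed within their counting intervals, and 3 did not: with a pseudocount of 5, Nfatc2 in T2 went from -0.22 to -0.11 and Itpr2 in T2 from -0.19 to -0.09, and with the same total Nfatc1 in T2 against T1 went from -0.12 to -0.09. The median of the 10 genes ran from -0.06 (same total) to -0.02 (pseudocount of 5) in T1. In T2 against T1 it turned to 0.02 with the same total, a scaling that shifts all genes alike.

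Counts over all genes past the size rule (115 in T1, 85 in T2 and 92 in T2 against T1) became 219, 197 and 176 with a pseudocount of 0.1, 17, 8 and 13 with a pseudocount of 5, 223, 208 and 201 without a filter, 25, 13 and 16 with a mean of at least 5 FPKM, and 290, 272 and 251 with a 1.5-fold rule. Scaling left them within 1.5 times.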
